A study of Mus musculus with 12 samples.

Results

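The genes described here carry glucose through the heart: 42 genes, taken by symbol from the 24061 genes of the count table, that encode glucose transporters, the enzymes of glycolysis, the pyruvate dehydrogenase complex with its kinases and phosphatases, and the enzymes that build and break down glycogen. Glucose enters a cardiac myocyte through GLUT proteins, of which GLUT4 moves to the surface membrane in response to insulin and contraction, and hexokinase traps it as glucose-6-phosphate. That intermediate can run down glycolysis to pyruvate, which pyruvate dehydrogenase commits to oxidation in mitochondria, or it can be stored as glycogen. The adult heart draws most of its energy from fatty acids and turns to glucose and glycogen when workload rises or oxygen falls, and many of these steps have a muscle isoform beside one that most tissues use.

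The hearts came from male mice aged 4 months. In the 6 knockout hearts (K7 to K12) both Slc4a4 alleles were floxed and a Cre recombinase transgene was present, which removes exon 12 of Slc4a4 and thereby NBCe1, the electrogenic sodium-bicarbonate cotransporter. The 6 hearts labelled wild type (W1 to W6) carried the same floxed alleles without Cre, so deletion and Cre cannot be told apart. Cre was driven by a β-myosin promoter and the Cre parent was C57Bl6, whereas RNA came from the whole heart, with its vessels, fibroblasts and blood. In such bulk RNA, fewer cells of a type and less RNA per cell cannot be told apart.

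The libraries held 10631869 to 13327519 counts, and values are given as CPM (counts scaled to libraries of 1000000, with TMM factors between libraries) or, to compare genes with each other, as RPKM (CPM per kilobase of exon). Slc4a4 itself averaged 49.9 ± 11.7 CPM in knockout hearts and 87.2 ± 17.8 CPM in wild-type hearts (SD, n = 6 each), a log2 fold change of -0.81 (SE 0.14) with an edgeR adjusted p of 0.0891. The adjusted p was 0.000511 in DESeq2, 0.195 in limma-voom, and in edgeR 0.0135 with no filter on low counts and 0.733 with the robust fit. With 1 heart left out it ran from 0.0275 (without K8, the one omission below 0.05) to 0.335 (without W3). The 8 cardiac myocyte markers were all present and summed to 48000 to 52190 CPM in knockout hearts and 48220 to 54030 CPM in wild-type hearts. The 7 red cell markers summed to 4569 to 10940 CPM in knockout hearts and 5482 to 30670 CPM in wild-type hearts, with the highest value in W2. The medians of these sums were 6294 CPM in knockout and 6968 CPM in wild type. Of the 7 markers, 6 had an edgeR unadjusted p under 0.05 between the genotypes, and 0 had an adjusted p under 0.05. Over all tested genes, 2.07% were higher in knockout at that unadjusted p and 2% lower. The 7 liver markers summed to 2.31 to 75.4 CPM in knockout hearts, highest in K7, and 0.310 to 1.52 CPM in wild-type hearts, without overlap. Only 1 liver marker had enough reads to be tested, and its edgeR unadjusted p was under 0.05. The part of either list in the glucose genes was not tested.

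No glucose gene passed the test for a difference between the genotypes. Of the 42 genes, 41 had enough reads to be tested, and at the 0.05 threshold the quasi-likelihood test of edgeR, with Benjamini-Hochberg adjustment over 13832 genes, called 0 of these 41, while the share called among all tested genes was also 0%. At an unadjusted p under 0.05 the count was 0 of 41 in either direction, against 2.07% of all tested genes higher in knockout and 2% lower. In 0 of 41 genes did every knockout heart lie above, or every one below, all wild-type hearts, against 0.137% of all tested genes higher and 0.116% lower. The log2 fold changes ran from -0.16 for Pgam1 to 0.27 for Pgm2, 23 of them positive and 18 negative, with a median of 0.017 beside 0.0019 over all tested genes, of which 50.6% were positive.

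The precision behind these values was high for most of the pathway. The 95% interval of the change lay within -20% to +25% for 35 of the 41 genes and within -33% to +50% for 41 of 41. The 6 genes whose intervals reached outside the first range were Slc2a1, Slc2a3, Slc2a12, Pfkfb2, Pgam1 and Pgm2. The edgeR adjusted p was at least 0.9988 for each of the 41 genes, so only unadjusted p-values are given below, and those do not correct for the number of genes. DESeq2 called 12 genes in the whole table and edgeR without a count filter called 16, limma-voom called 0, and 0 of these calls were glucose genes. Leaving out W2 and K7 together left 0 of 41 called and 1 at an unadjusted p under 0.05, Ugp2 (log2 fold change 0.18, edgeR adjusted p = 0.965).

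**Figure D1:**
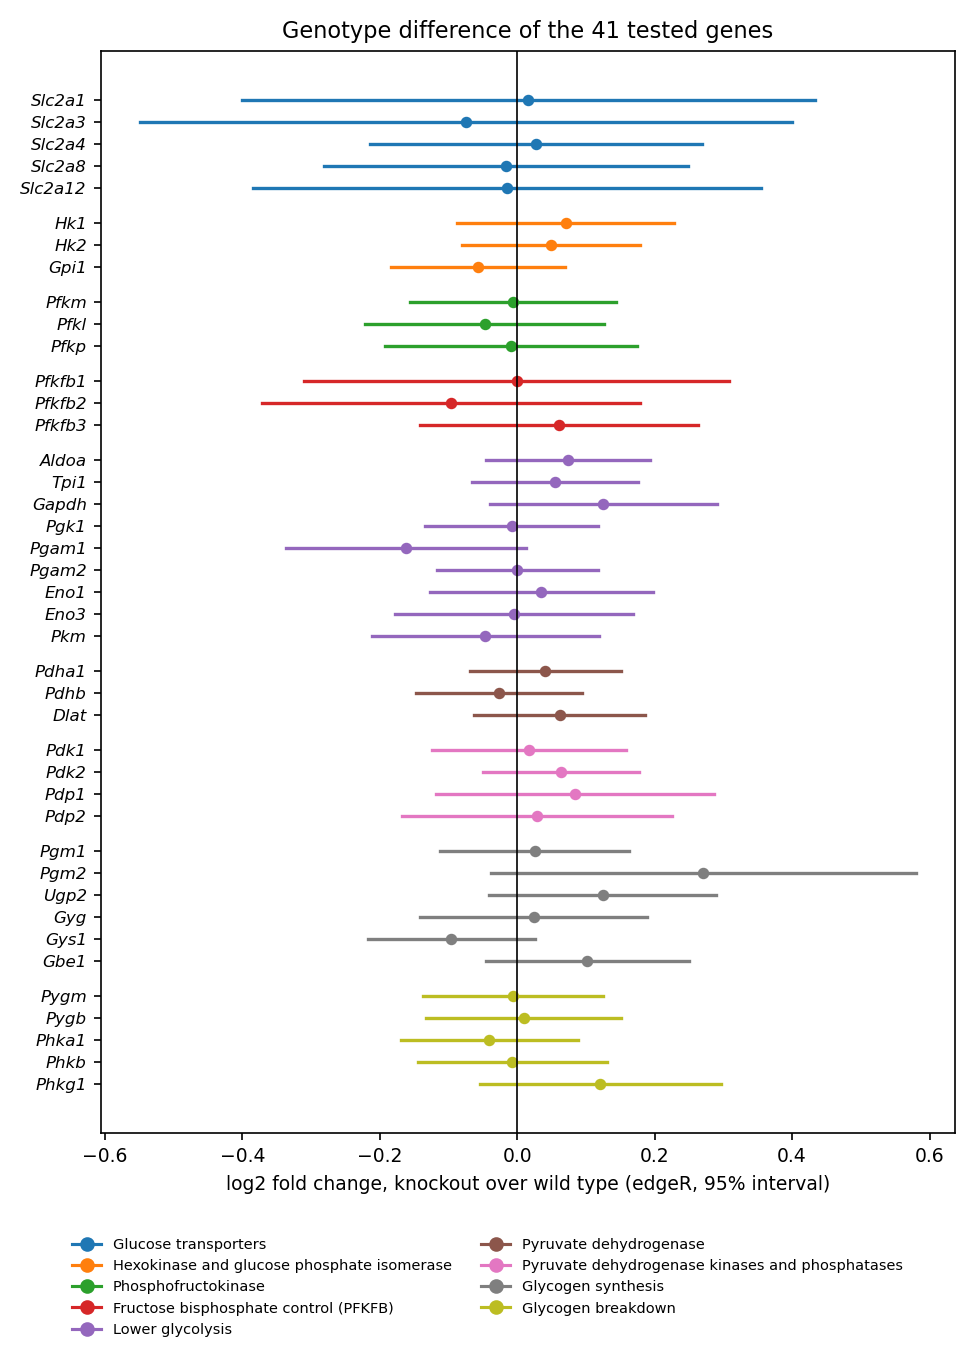
Log2 fold change of knockout over wild type for each of the 41 tested genes (points) with its 95% interval (lines), one row per gene and one colour per step of the pathway. All 41 lines cross 0, and the widest belong to Slc2a3, Slc2a1, Slc2a12 and Pgm2.

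Among the glucose transporters, Slc2a4, which encodes the insulin-responsive transporter GLUT4, was by far the most abundant transporter transcript per length, at 295 ± 50.3 RPKM over the 12 hearts (SD). Slc2a1, the gene of the broadly expressed GLUT1, followed at 16.6 ± 5.42 RPKM, and then Slc2a8 (GLUT8) at 5.05 ± 0.664, Slc2a12 (GLUT12) at 1.94 ± 0.41 and Slc2a3 (GLUT3, the main neuronal transporter) at 1.3 ± 0.371 RPKM. Slc2a12 and Slc2a3 lay close enough for their hearts to overlap, while the other neighbours in this order did not overlap in any heart. Slc2a4 therefore made up 92.3% ± 0.427 in knockout and 92.2% ± 1.11 in wild type of the summed transporter RPKM (SD, n = 6 each; exact two-sided permutation p = 0.818).

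Slc2a4 had lowest, median and highest values of 701, 855 and 927 CPM in knockout hearts, against 603, 825 and 1126 CPM in wild-type hearts. The wild-type hearts spanned the wider range, from W4 to W6, and the knockout hearts lay inside it. The log2 fold change was 0.028 (SE 0.12, 95% interval from -0.21 to 0.27, edgeR unadjusted p = 0.81). Slc2a1 had lowest, median and highest values of 44.5, 54.3 and 69.0 CPM in knockout hearts, against 32.9, 42.4 and 95.6 CPM in wild-type hearts. Its SD was 9.13 CPM in knockout and 24.6 CPM in wild type, where W6 and W3 stood above the other hearts, and it was the most variable tested gene of the pathway. The log2 fold change of 0.017 (SE 0.20, 95% interval from -0.40 to 0.43, edgeR unadjusted p = 0.94) became 0.26 without W6 and -0.10 without W4, with unadjusted p-values of 0.112 and 0.624 in edgeR. Slc2a3, with 734 reads in all 12 hearts, had 3.29, 4.79 and 7.2 CPM in knockout hearts, against 2.79, 5.54 and 7.8 CPM in wild-type hearts (log2 fold change -0.074, SE 0.23, 95% interval from -0.55 to 0.40, edgeR unadjusted p = 0.75). It had the smallest p of the 5 transporters and the groups overlapped. Slc2a8 averaged 10.6 ± 1.25 CPM in knockout and 10.7 ± 1.65 CPM in wild type, and Slc2a12 8.05 ± 1.82 CPM in knockout and 8.13 ± 1.76 CPM in wild type (SD, n = 6 each).

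At the hexokinase step, Hk2, the hexokinase of insulin-sensitive muscle, exceeded Hk1, the form of brain and most other tissues, in each of the 12 hearts, by 3.23 to 4.17 times in RPKM. Hk2 had lowest, median and highest values of 453, 525 and 568 CPM in knockout hearts, against 475, 494 and 546 CPM in wild-type hearts, which overlap (log2 fold change 0.05, SE 0.062, 95% interval from -0.08 to 0.18, edgeR unadjusted p = 0.43). Hk1 averaged 122 ± 9.79 CPM in knockout and 117 ± 11.8 CPM in wild type (SD, n = 6 each). The share of Hk2 in the pair was 78.4% ± 0.805 in knockout and 78.7% ± 1.5 in wild type (exact two-sided permutation p = 0.704). Gpi1, which turns glucose-6-phosphate into fructose-6-phosphate, had 254, 277 and 293 CPM in knockout hearts, against 264, 282 and 324 CPM in wild-type hearts and the smallest p of the 3 genes (log2 fold change -0.057, SE 0.061, 95% interval from -0.18 to 0.069, edgeR unadjusted p = 0.36). K8 was lowest and W1 highest, and the groups overlapped. Of the 50-base stretches in Gpi1 transcripts, 19.3% also occur in transcripts of other genes, so its reads could have been split or shared in counting.

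Phosphofructokinase commits sugar to glycolysis, and its muscle subunit gene, Pfkm, dominated at 377 ± 32.1 RPKM, against 15.3 ± 1.49 for the liver subunit Pfkl and 8.75 ± 0.857 for the platelet subunit Pfkp (SD over 12 hearts). Pfkl exceeded Pfkp in 12 of 12 hearts. Pfkm had lowest, median and highest values of 1034, 1130 and 1187 CPM in knockout hearts, against 978, 1108 and 1293 CPM in wild-type hearts. The knockout range lay inside the wild-type range, in which W6 and W3 were highest and W4 lowest (log2 fold change -0.0062, SE 0.072, 95% interval from -0.16 to 0.14, edgeR unadjusted p = 0.93). Pfkl, which had the smallest p of the 3, had 49.9, 55.6 and 63.8 CPM in knockout hearts, against 48.8, 58.4 and 67.5 CPM in wild-type hearts (log2 fold change -0.047, SE 0.083, 95% interval from -0.22 to 0.13, edgeR unadjusted p = 0.58). Pfkp averaged 37.5 ± 3.56 CPM in knockout and 37.8 ± 4.14 CPM in wild type (SD, n = 6 each), and Pfkm made up 94.0% ± 0.331 in knockout and 93.9% ± 0.599 in wild type of the subunits by RPKM (exact two-sided permutation p = 0.58).

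The PFKFB enzymes set the level of fructose-2,6-bisphosphate, the strongest activator of phosphofructokinase. Pfkfb2, the heart isoform, was the highest of the 3 at 50.7 ± 11.3 RPKM, with Pfkfb1, known from liver and skeletal muscle, at 14.1 ± 2.93 and the inducible Pfkfb3 at 4.04 ± 0.409 RPKM (SD over 12 hearts). Pfkfb2 had lowest, median and highest values of 218, 248 and 278 CPM in knockout hearts, against 206, 234 and 418 CPM in wild-type hearts. A single wild-type heart, W6, set the top of the range, while the other 5 reached at most 269 CPM, below the highest knockout heart. The log2 fold change was -0.10 (SE 0.13, 95% interval from -0.37 to 0.18, edgeR unadjusted p = 0.47) with all hearts and 0.085 without W6 (edgeR unadjusted p = 0.307). In W6 the share of Pfkfb2 in the 3 genes was 86.1%, the highest of the 12 hearts, and Pfkfb1 was at its lowest there, at 19.9 CPM. Pfkfb1 averaged 28.8 ± 4.73 CPM in knockout and 28.8 ± 7.47 CPM in wild type, and Pfkfb3 22.8 ± 3.04 CPM in knockout and 21.8 ± 1.18 CPM in wild type (SD, n = 6 each). Of the 50-base stretches of Pfkfb2, 25.1% also occur in transcripts of the gene model Gm29427, so its counts may be shared.

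**Figure D2:**
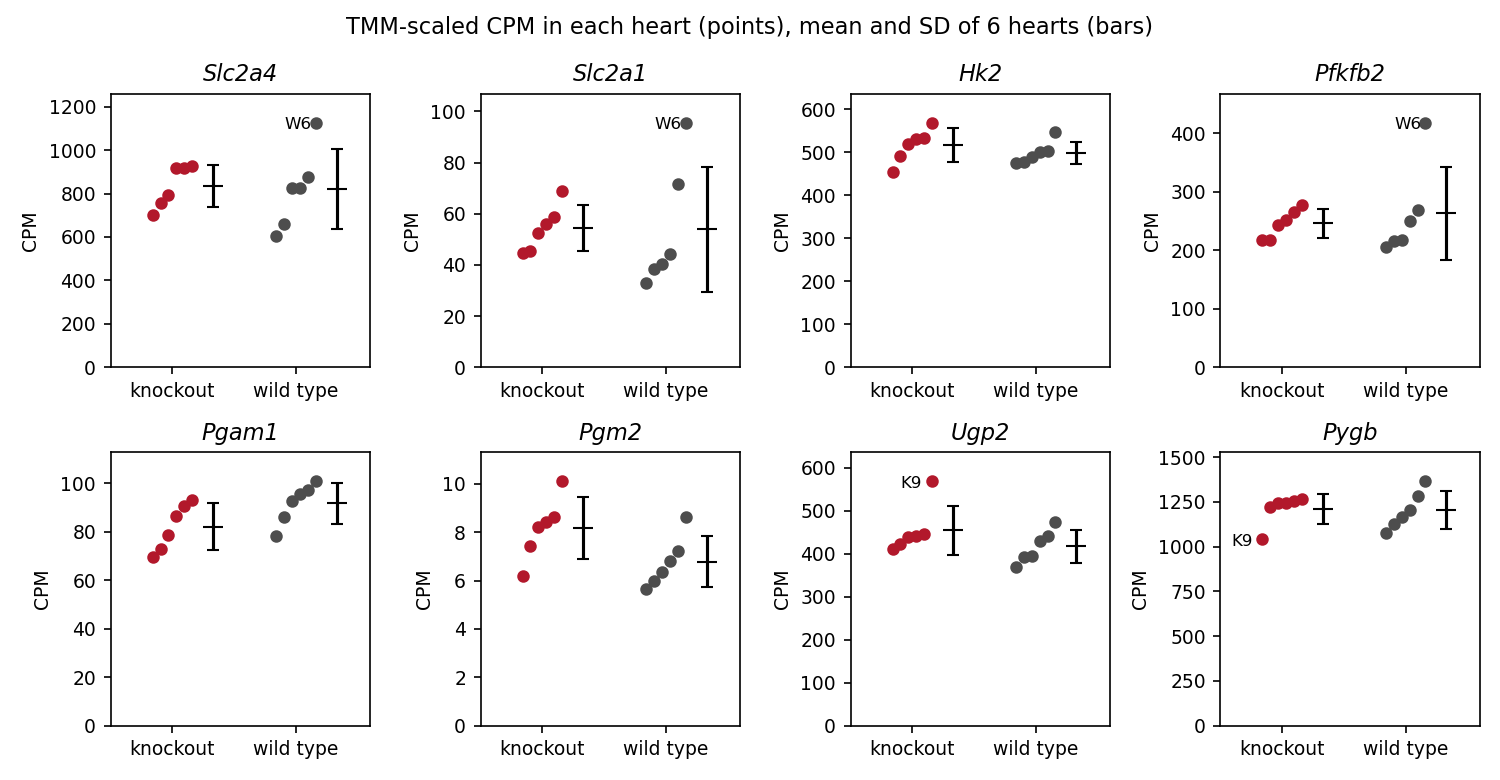
CPM of 8 genes in each heart (points, sorted within a group for display), with the group mean and SD beside them, knockout left and wild type right in each panel. The groups overlap in all 8 panels, W6 stands at the top for Slc2a1, Slc2a4 and Pfkfb2, and K9 stands apart for Ugp2 and Pygb.

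Lower glycolysis, from aldolase to pyruvate kinase, held the 3 most abundant glycolytic transcripts. Gapdh, which makes the NADH of glycolysis, reached 1710 ± 181 RPKM, Aldoa, the muscle aldolase, 808 ± 44.5 RPKM and Eno3, the muscle enolase, 722 ± 81.2 RPKM (SD over 12 hearts). Below them came Pgam2, Tpi1 (triose phosphate isomerase), Pkm (pyruvate kinase) and Pgk1 (phosphoglycerate kinase, the first step that yields ATP) at 284, 262, 254 and 225 RPKM. Aldoc, the brain aldolase, held 14 reads over all 12 hearts and was the single gene left untested, and Aldoa made up at least 99.98% of the aldolase pair in each heart.

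Aldoa had lowest, median and highest values of 1460, 1491 and 1626 CPM in knockout hearts, against 1332, 1426 and 1545 CPM in wild-type hearts (log2 fold change 0.074, SE 0.057, 95% interval from -0.046 to 0.19, edgeR unadjusted p = 0.21). The groups overlapped, with K11 highest and W3 lowest. Gapdh averaged 2667 ± 143 CPM in knockout and 2446 ± 332 CPM in wild type, with its lowest value, 1933 CPM, in W4 (SD, n = 6 each; log2 fold change 0.13, 95% interval from -0.04 to 0.29). Without W6 the log2 fold change of Gapdh was 0.17 (edgeR unadjusted p = 0.0358, adjusted p = 0.847), and without W4 it was 0.062. Tpi1 averaged 471 ± 7.83 CPM in knockout and 453 ± 32.8 CPM in wild type, and its knockout hearts lay within 457 to 477 CPM. Pgk1 averaged 409 ± 9.5 CPM in knockout and 411 ± 34.2 CPM in wild type, and Pkm 649 ± 40.1 CPM in knockout and 669.7 ± 90.7 CPM in wild type (SD, n = 6 each). The gene total of Pkm joins the M1 form of differentiated muscle and the M2 form of growing cells, which counts per gene do not separate. Reads of several of these genes could match other loci: 82.5% of the 50-base stretches of Gapdh, 68% of Pgk1, 34.4% of Pkm, 13.5% of Aldoa and 7.51% of Tpi1 recur in transcripts of other genes. Their counts may be shared, and how far this changed the values was not tested.

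Phosphoglycerate mutase had the smallest p in the whole set, on its broadly expressed isoform. Pgam1 had lowest, median and highest values of 69.8, 82.8 and 93.2 CPM in knockout hearts, against 78.1, 94.0 and 101 CPM in wild-type hearts. K12 and K11 lay below every wild-type heart, of which W6 was lowest, and the other 4 knockout hearts lay within the wild-type range. The log2 fold change was -0.16 (SE 0.084, 95% interval from -0.34 to 0.013, edgeR unadjusted p = 0.068), and it missed the threshold also before adjustment. Leaving out K7, K9, W4 or W6 brought the unadjusted p to between 0.0212 and 0.0469, with edgeR adjusted p-values of at least 0.795. Without K12 the log2 fold change of Pgam1 was -0.12 (edgeR unadjusted p = 0.173). Of its 50-base stretches 41.5% also occur in the pseudogene Pgam1-ps2, so the total may hold reads of both.

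Pgam2, the muscle isoform, had lowest, median and highest values of 231, 234 and 254 CPM in knockout hearts, against 219, 240.3 and 254 CPM in wild-type hearts, and its log2 fold change was 0.00039 (SE 0.056, 95% interval from -0.12 to 0.12, edgeR unadjusted p = 0.99). It exceeded Pgam1 by 5.12 to 7.42 times in RPKM. The Pgam2 share of the pair was 86.0% ± 1.65 in knockout and 84.6% ± 0.975 in wild type (SD, n = 6 each), a difference of 1.39 percentage points with the smallest p of the 12 shares tested (exact two-sided permutation p = 0.0844, Benjamini-Hochberg adjusted 0.753). K10, K11 and K12 had shares of 87.0% to 88.1%, above every wild-type heart, and K7, K8 and K9 had 84.1% to 85.1%, within the wild-type range.

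The start regions of the pair differ in base composition. They are printed because these isoforms catalyse the same step and differ widely in CG pairs. Each run is the 250 bases before the start in the RefSeq table of GRCm38.p6, 5′ to 3′ on the strand of the gene, with every CG pair in capitals, from chr11:5803797-5804046 (minus strand) for Pgam2 and chr19:41911621-41911870 (plus strand) for Pgam1:
Pgam2: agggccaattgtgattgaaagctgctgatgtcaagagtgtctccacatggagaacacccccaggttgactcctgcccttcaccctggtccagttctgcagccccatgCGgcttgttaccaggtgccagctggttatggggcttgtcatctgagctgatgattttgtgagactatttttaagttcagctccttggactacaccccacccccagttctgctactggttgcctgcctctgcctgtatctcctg
Pgam1: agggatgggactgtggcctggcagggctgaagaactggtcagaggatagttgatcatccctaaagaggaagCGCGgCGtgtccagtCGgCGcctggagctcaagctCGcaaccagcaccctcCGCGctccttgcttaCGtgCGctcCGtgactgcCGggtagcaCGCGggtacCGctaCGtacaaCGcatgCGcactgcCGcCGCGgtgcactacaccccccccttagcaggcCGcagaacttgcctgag
The Pgam2 run holds 1 CG pair and the Pgam1 run 22. The nearest annotated start in GENCODE lies 63 bases further downstream for Pgam2 and 52 bases for Pgam1. These letters describe the reference genome, and nothing measured here bears on how either promoter is used.

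Enolase showed the same order of isoforms. Eno3 had lowest, median and highest values of 1065, 1122 and 1213 CPM in knockout hearts, against 946, 1082 and 1438 CPM in wild-type hearts. W6 stood highest and W4 lowest, with all 6 knockout hearts between them (log2 fold change -0.0046, SE 0.083, 95% interval from -0.18 to 0.17, edgeR unadjusted p = 0.96). Eno1, the broadly expressed enolase, averaged 66.7 ± 7.0 CPM in knockout and 65.1 ± 4.46 CPM in wild type (SD, n = 6 each), and Eno3 made up 96.5% ± 0.339 in knockout and 96.5% ± 0.363 in wild type of the pair (exact two-sided permutation p = 0.829). Eno1 is uncertain, since 72.2% of its 50-base stretches recur elsewhere, 70.5% in the near-identical gene Eno1b. Eno1b, outside the 42 genes, averaged 119.8 ± 9.65 CPM in knockout and 117 ± 6.7 CPM in wild type, and its RPKM was 2.33 to 2.56 times that of Eno1 in the 12 hearts. Counted with Eno1b and the neuronal Eno2, Eno3 made up 88.9% of enolase RPKM in knockout and 89.0% in wild type.

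The pyruvate dehydrogenase complex, which turns pyruvate into acetyl-CoA, was represented by Pdhb and Pdha1, the subunits of its first enzyme, at 833 ± 43.9 and 648 ± 22.5 RPKM, and Dlat, its acetyltransferase core, at 128 ± 7.66 RPKM (SD over 12 hearts). Pdhb exceeded Pdha1 in 12 of 12 hearts, though 30.3% of its 50-base stretches recur in Gm6123. Pdhb had lowest, median and highest values of 1173, 1258 and 1311 CPM in knockout hearts, against 1204, 1241 and 1406 CPM in wild-type hearts, with W6 highest (log2 fold change -0.026, SE 0.058, 95% interval from -0.15 to 0.095, edgeR unadjusted p = 0.65). Pdha1 was the steadiest gene of all 42 across the 12 hearts, with a coefficient of variation of 3.48%, and averaged 1871 ± 41.8 CPM in knockout and 1819 ± 75.3 CPM in wild type (SD, n = 6 each; 95% interval from -0.069 to 0.15 on the log2 scale). Dlat had 484, 537 and 549 CPM in knockout hearts, against 469.6, 502 and 565 CPM in wild-type hearts and the smallest p of the 3 (log2 fold change 0.062, SE 0.06, 95% interval from -0.062 to 0.19, edgeR unadjusted p = 0.31). Its lowest heart was W1 and its highest W4, with the knockout hearts between.

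Pyruvate dehydrogenase kinases switch the complex off and the phosphatases switch it on. Among the 4 genes of this group, Pdk2 was highest at 180.2 ± 8.08 RPKM, then Pdk1 at 55.6 ± 4.18, Pdp1 at 16.8 ± 2.25 and Pdp2 at 6.87 ± 0.763 RPKM (SD over 12 hearts). Pdk2 had lowest, median and highest values of 394, 415 and 444 CPM in knockout hearts, against 372, 396 and 412 CPM in wild-type hearts, which overlap, and the smallest p of the group (log2 fold change 0.064, SE 0.054, 95% interval from -0.05 to 0.18, edgeR unadjusted p = 0.25). Pdk1 averaged 290 ± 16.1 CPM in knockout and 287 ± 27.7 CPM in wild type (SD, n = 6 each). Pdp1, the calcium-stimulated phosphatase, had lowest, median and highest values of 65.6, 74.1 and 96.4 CPM in knockout hearts, against 62.7, 72.9 and 85.8 CPM in wild-type hearts, with K11 and K12 above every wild-type heart (log2 fold change 0.085, SE 0.10, 95% interval from -0.12 to 0.29, edgeR unadjusted p = 0.39). With 1 heart left out the log2 fold change of Pdp1 ran from 0.015 without K11 to 0.13 without W4 (edgeR unadjusted p = 0.876 and 0.198). Pdp2, the calcium-insensitive phosphatase, averaged 39.5 ± 5.88 CPM in knockout and 38.7 ± 2.57 CPM in wild type (SD, n = 6 each), and was lowest in K11.

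The kinase that responds most to fasting and fatty acids, Pdk4, lies outside the 42 genes and varied far more between hearts than Pdk1 or Pdk2. It had lowest, median and highest values of 230.2, 457 and 645 CPM in knockout hearts, against 310.1, 571 and 774 CPM in wild-type hearts, an overlapping spread in both groups (log2 fold change -0.35, SE 0.24, 95% interval from -0.85 to 0.16, edgeR unadjusted p = 0.17). With 1 heart left out the log2 fold change of Pdk4 ran from -0.49 without K10 to -0.22 without K12 (edgeR unadjusted p = 0.0634 and 0.364). Its RPKM was 0.686 ± 0.282 times that of Pdk2 in knockout and 0.912 ± 0.339 times in wild type (SD, n = 6 each), and it exceeded Pdk2 in 3 of the 12 hearts. Counted against Pdk1 alone, Pdk2 made up 76.7% in knockout and 76.1% in wild type, and with Pdk3 and Pdk4 included it made up 50.6% in knockout and 45.5% in wild type.

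In glycogen synthesis, Ugp2, which makes UDP-glucose, was the most abundant of these transcripts at 152 ± 17.6 RPKM, followed by Pgm1 (phosphoglucomutase) at 107 ± 7.72, Gyg (glycogenin, the protein primer) at 78.4 ± 7.76, Gys1 (muscle glycogen synthase) at 36.3 ± 1.99 and Gbe1 (branching enzyme) at 31.4 ± 2.65 RPKM (SD over 12 hearts). Pgm2 was the lowest, at 3.15 ± 0.568 RPKM. The names Pgm1 (gene ID 72157, chr4:99929451-99987294) and Pgm2 (gene ID 66681, chr5:64092919-64128355) follow the RefSeq annotation of GRCm38.p6, since other releases exchange them. Pgm1 made up at least 96.0% of the pair in each heart.

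Pgm2 had the largest positive log2 fold change in the set, with few reads behind it, 1055 over the 12 hearts. Its lowest, median and highest values were 6.21, 8.34 and 10.1 CPM in knockout hearts, against 5.66, 6.59 and 8.62 CPM in wild-type hearts. K9 and K12 lay above every wild-type heart and the other 4 knockout hearts within the wild-type range (log2 fold change 0.27, SE 0.15, 95% interval from -0.039 to 0.58, edgeR unadjusted p = 0.083). Without K8 the unadjusted p in edgeR was 0.0333 and without W3 it was 0.0324, with adjusted p-values of at least 0.999. Without K9 the log2 fold change of Pgm2 was 0.20 (edgeR unadjusted p = 0.201). The Pgm2 share of the pair was 3.11% ± 0.543 in knockout and 2.64% ± 0.427 in wild type (SD, n = 6 each; exact two-sided permutation p = 0.126, adjusted 0.753 over the 12 shares). Pgm1 had lowest, median and highest values of 299.7, 316 and 330.4 CPM in knockout hearts, against 269.6, 301 and 349 CPM in wild-type hearts (log2 fold change 0.025, SE 0.066, 95% interval from -0.11 to 0.16, edgeR unadjusted p = 0.71).

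Ugp2 averaged 455 ± 57.3 CPM in knockout and 417 ± 38.4 CPM in wild type, with K9 alone at 569 CPM and the other knockout hearts at 412 to 446 CPM (SD, n = 6 each; log2 fold change 0.12, 95% interval from -0.042 to 0.29). Without K9 the log2 fold change of Ugp2 was 0.05 (edgeR unadjusted p = 0.475). Gys1 averaged 129 ± 3.62 CPM in knockout and 138 ± 7.56 CPM in wild type (log2 fold change -0.10, 95% interval from -0.22 to 0.026). A single wild-type heart, W5 at 126 CPM, lay within the knockout range of 123 to 133 CPM. Without W5 the groups did not overlap, at an edgeR unadjusted p of 0.058 and an adjusted p of 0.999. The share of all tested genes without overlap was not taken for that set of hearts. Without W6 the log2 fold change of Gys1 was -0.075 (edgeR unadjusted p = 0.215). Gbe1 averaged 139 ± 7.25 CPM in knockout and 129 ± 13.2 CPM in wild type (log2 fold change 0.10, and 0.057 without W4), and Gyg 152 ± 20.3 CPM in knockout and 149 ± 8.61 CPM in wild type (SD, n = 6 each).

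For glycogen breakdown, the heart expressed the phosphorylase genes of muscle and brain side by side. Pygb, the brain form, reached 309 ± 23.5 RPKM and Pygm, the muscle form, 279 ± 18.0 RPKM (SD over 12 hearts). Pygb over Pygm in RPKM ran from 0.985 to 1.25 and was above 1 in 11 of 12 hearts, with K10 the exception. The muscle gene held slightly under an even share, with Pygm at 47.3% ± 2.12 in knockout and 47.6% ± 1.18 in wild type (SD, n = 6 each; exact two-sided permutation p = 0.745). By reads without correction for length the share was 39.8% in knockout and 40.1% in wild type. Pygm and Pygb share under 1% of their 50-base stretches.

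Pygb had lowest, median and highest values of 1040, 1244 and 1265 CPM in knockout hearts, against 1075, 1186 and 1365 CPM in wild-type hearts. K9 was the lowest of the 12 hearts, and the other 5 knockout hearts lay within 1221 to 1265 CPM (log2 fold change 0.0097, SE 0.068, 95% interval from -0.13 to 0.15, edgeR unadjusted p = 0.89). Pygm averaged 799.8 ± 64.5 CPM in knockout and 803 ± 41.3 CPM in wild type (SD, n = 6 each; 95% interval from -0.14 to 0.12 on the log2 scale). Phosphorylase kinase, which activates phosphorylase, was represented by Phkb, Phkg1 and Phka1, the β, catalytic γ and muscle α subunits, at 25.4 ± 1.65, 18.7 ± 1.91 and 15.3 ± 0.742 RPKM (SD over 12 hearts). Phkg1 had the smallest p of the group, with lowest, median and highest values of 40.8, 47.7 and 51.8 CPM in knockout hearts, against 38.0, 42.6 and 50.1 CPM in wild-type hearts (log2 fold change 0.12, SE 0.084, 95% interval from -0.054 to 0.30, edgeR unadjusted p = 0.16). Its highest wild-type heart, W1, lay above 5 of the 6 knockout hearts, and without W1 the unadjusted p was 0.0499 in edgeR (adjusted p = 0.999). Without W2 the log2 fold change of Phkg1 was 0.085 (edgeR unadjusted p = 0.34). Phkb averaged 136 ± 9.7 CPM in knockout and 136 ± 8.79 CPM in wild type, and Phka1 92.9 ± 4.92 CPM in knockout and 95.5 ± 4.18 CPM in wild type (SD, n = 6 each).

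The choice of isoform at each step was then tested directly, as the share of 1 isoform in the summed RPKM of its step. For 12 shares, all 924 regroupings of the hearts were enumerated, and 0 of 12 differed between the genotypes at a Benjamini-Hochberg adjusted p of 0.05. The next smallest p after the Pgam2 and Pgm2 shares belonged to Aldoa (exact two-sided permutation p = 0.229). That share differed by 0.0047 percentage points and rests on the 14 reads of Aldoc. The largest differences in either direction were +1.39 percentage points for Pgam2 and -0.518 for Pfkfb2. The muscle or insulin-responsive gene took more than 70% of its step, on average in both groups, for the transporters (Slc2a4), hexokinases (Hk2), phosphofructokinases (Pfkm), aldolases (Aldoa), mutases (Pgam2) and enolases (Eno3).

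**Figure D3:**
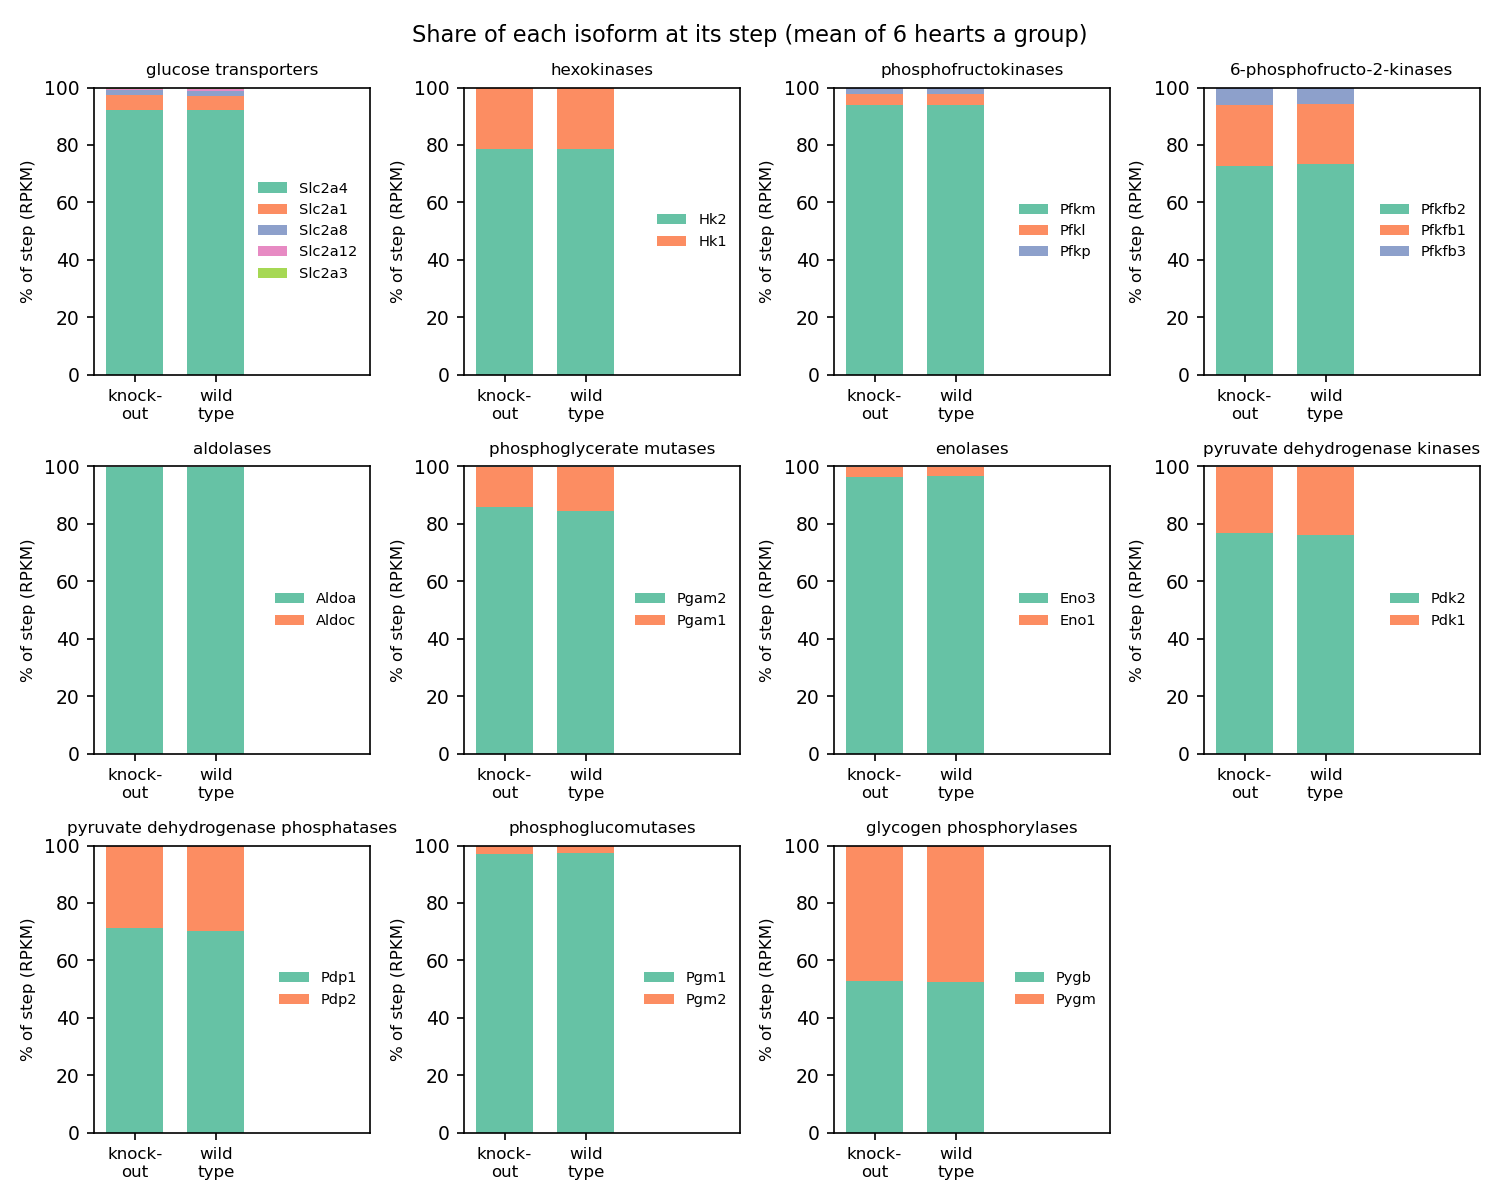
Mean share of each isoform in the summed RPKM of its step (y axis, percent), knockout left and wild type right, over 6 hearts a group. Of the tested shares the mutases differ most between the bars, by 1.39 percentage points, and the glycogen phosphorylases are the step closest to an even split, with Pygm at 47.3% in knockout and 47.6% in wild type.

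Across hearts these genes varied less than the median gene, and a pair of wild-type hearts, W4 and W6, held many of their extremes. The median coefficient of variation over the 12 hearts was 9.04% for the 41 genes, with a range from 3.48% (Pdha1) to 32.6% (Slc2a1), beside 14.5% for all tested genes. These genes are also highly expressed, together taking 1.83% of all reads, and the part of expression level in their low variation was not tested. W6 was the highest heart for 10 of 41 genes (24.4%, beside 10.9% of all tested genes), among them Slc2a1, Slc2a4, Pfkm, Pfkfb2, Eno3, Pdhb and Pygb. W4 was the lowest heart for 13 of 41 (31.7%, beside 12.2% of all tested genes), among them Slc2a1, Slc2a4, Hk1, Pfkm, Gapdh, Eno3, Pkm and Pgm1. The SD was larger in wild type for 26 of 41 genes, or 63.4%, beside 55.6% of all tested genes. The 6 macrophage markers summed to 328 to 423 CPM in knockout hearts and 305 to 463 CPM in wild-type hearts, with W6 highest, and their part in the W6 values was not tested.

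**Figure D4:**
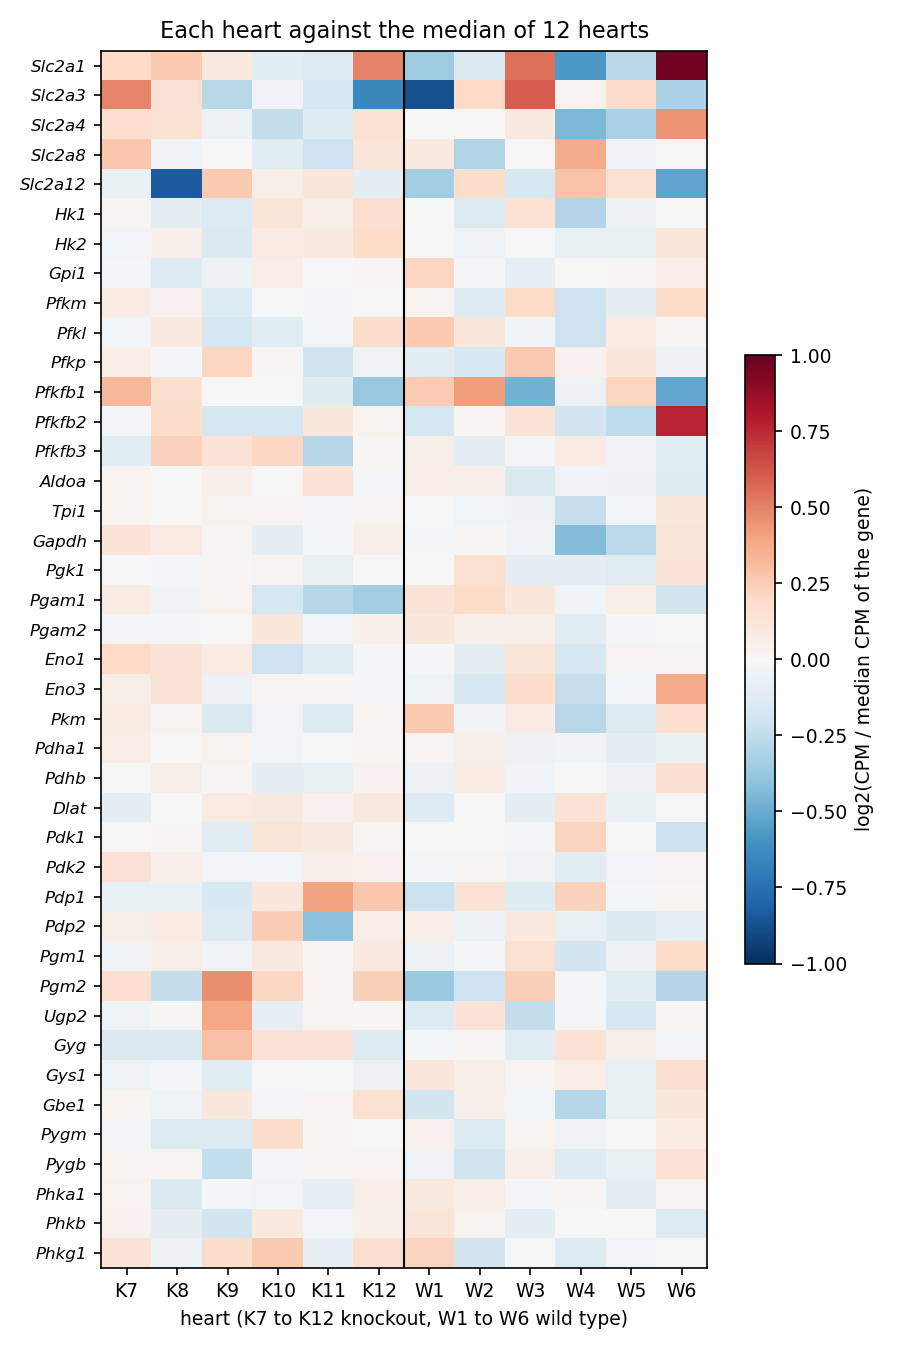
Log2 ratio of each heart to the 12-heart median of the gene (colour, on a scale from -1 to 1) for the 41 tested genes (rows) in knockout hearts K7 to K12 (left of the line) and wild-type hearts W1 to W6 (right). W6 is red for Slc2a1, Slc2a4, Pfkfb2 and Eno3, W4 is blue for Slc2a1, Slc2a4 and Gapdh, and no column of knockout hearts is red or blue throughout.

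A wider list of 54 other genes of the pathway, among them further transporters, the pentose phosphate enzymes, glycogen regulators and the insulin and AMPK signals that control GLUT4, gave the same count of calls. Of these, 48 were tested and 0 passed the edgeR adjusted p of 0.05. At an unadjusted p under 0.05 there was 1, which was lower, beside 2% of all tested genes in that direction. The median log2 fold change was -0.022, with 21 positive and 27 negative. The gene below 0.05 was Bpgm, which makes the 2,3-bisphosphoglycerate of red cells, at 25.1 ± 3.27 CPM in knockout and 33.9 ± 15.8 CPM in wild type (SD, n = 6 each), with a log2 fold change of -0.43, an SE of 0.20 and an adjusted p of 0.999 in edgeR. Its highest heart was W2, at 64.3 CPM, the heart in which the red cell markers summed to 30670 CPM, and without W2 the log2 fold change was -0.15 (edgeR unadjusted p = 0.245).

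Txnip, a glucose-responsive protein that lowers glucose uptake, had lowest, median and highest values of 334, 413 and 843 CPM in knockout hearts, against 318, 562 and 845 CPM in wild-type hearts. K10 was far above the other knockout hearts, which reached 429 CPM at most. The log2 fold change was -0.27 (SE 0.22, 95% interval from -0.74 to 0.19, edgeR unadjusted p = 0.24), and without K10 it was -0.53 (edgeR unadjusted p = 0.0109, adjusted p = 1). Without W2 it was -0.12 (edgeR unadjusted p = 0.582). Insr, the insulin receptor, averaged 399 ± 31.7 CPM in knockout and 433 ± 25.4 CPM in wild type, the smallest p among the regulators of uptake (log2 fold change -0.12, SE 0.064, 95% interval from -0.25 to 0.013, edgeR unadjusted p = 0.076). K8, K10, K11 and K12 lay below every wild-type heart, and K7 and K9 lay within the wild-type range. The log2 fold change of Insr was -0.15 without K7 (edgeR unadjusted p = 0.0318, adjusted p = 0.997) and -0.095 without K12 (edgeR unadjusted p = 0.171). Tkt, the transketolase of the pentose phosphate pathway, averaged 11.1 ± 2.24 CPM in knockout and 13.7 ± 3.7 CPM in wild type (log2 fold change -0.31, SE 0.17, 95% interval from -0.66 to 0.039, edgeR unadjusted p = 0.079). The log2 fold change of Tkt was -0.17 without W6 (edgeR unadjusted p = 0.29) and -0.39 without W2 (edgeR unadjusted p = 0.0292, adjusted p = 0.995). Of the glycogen-targeting subunits of protein phosphatase 1, Ppp1r3a, the muscle form, averaged 732 ± 45.6 CPM in knockout and 787 ± 132 CPM in wild type, and the low-abundance Ppp1r3e 1.66 ± 0.825 CPM in knockout and 2.36 ± 0.488 CPM in wild type, with log2 fold changes of -0.11 and -0.49 and edgeR unadjusted p-values of 0.25 and 0.12. Without K7 the log2 fold change of Ppp1r3e was -0.77 (edgeR unadjusted p = 0.0176, adjusted p = 0.997) and without K11 it was -0.34. That of Ppp1r3a was -0.048 without W4 and -0.16 without W6.

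The promoter table held windows of 300 bases (250 before to 50 after the start) for 39 of the 42 genes, 58 windows in all. The median number of CG pairs was 14.5 in these windows and 7 over all 32851 windows of the table, whose quartiles were 3 and 20. The windows of these genes ran from 0 pairs, in 1 of the 3 Aldoa windows, to 38 for Phkb, with 1 for Pgam2 and 30 for Pgam1. The letters TATAAA occurred on either strand in 5.17% of the windows of these genes and in 13.6% of all windows. The letters ACGTG, the core bound by the oxygen-regulated factor HIF-1, occurred on either strand in 25 of the 58 windows (43.1%), beside 19.6% of all windows. ACGTG itself contains a CG pair, windows of 1 gene can overlap, and a match shows no binding.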

How the data were processed

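RNA of whole hearts was sequenced in 12 mice, 6 knockout and 6 wild type by the genotype in the labels, with 1 library per mouse per the series design text. The authors deposited raw counts of reads per gene for 24061 NCBI gene IDs, of which 23976 matched a name in RefSeq (GRCm38.p6) and 85 did not. The submitters' processing notes name the mm10 build, TopHat, DESeq, CASAVA 1.8 and bcl2fastq, in no stated order or role. For the counter, its annotation, strand and reads with several matches, the sources used here give nothing.

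The deposited counts were filtered (filterByExpr, minimum count 10, minimum total 15), scaled by TMM and compared between genotypes with the quasi-likelihood F test of edgeR 4.0.16 in R 4.3.3, with Benjamini-Hochberg adjustment at 0.05 over 13832 genes. Intervals are at 95%. RPKM used the union of exons of protein-coding transcripts in GENCODE M21 (basic set), and isoform shares used exact permutation tests over 924 regroupings. Sharing between genes was measured as the percent of 50-base stretches found in transcripts of other genes. Alternatives were DESeq2 1.42.0, limma-voom (limma 3.58.1), other scalings and filters, other lengths, W2 and K7 left out together, and each heart left out in turn. The scripts were tested on simulated counts.

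The 42 genes, the other lists and the alternatives were chosen with earlier results of these data known. Full values are given for the highest isoform of each step and the gene with the smallest p in each role group, and of the other pathway genes for Pdk4, Txnip, any that pass and the 2 with the smallest p in each list. The replicates are separate mice, and p-values measure the spread between them. Plots were drawn with matplotlib 3.10.9.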

Additional observations from a re-analysis of the deposited data

Results flagged for a closer look

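Each group of 6 hearts was screened for a single heart far from the rest, taking the gap to its nearest neighbour over the range of the group with the critical value of Dixon at 95%. Of 124 sets of 6 values, 7 had such a heart, where chance alone gives about 6.2 at 5% of sets. Pfkfb2 was 418 CPM in W6, with the other wild-type hearts at 206 to 269 CPM. Ugp2 was 569 CPM in K9, with the other knockout hearts at 412 to 446 CPM. Pygb was 1040 CPM in K9, with the other knockout hearts at 1221 to 1265 CPM. Bpgm was 64.3 CPM in W2, with the other wild-type hearts at 23.2 to 38.0 CPM, and Txnip was 843 CPM in K10, with the other knockout hearts at 334 to 429 CPM. The Pgam2 share of the mutases was 86.5% in W6, with the other wild-type hearts at 83.7% to 84.7%, and the Eno3 share of the enolases was 97.3% in W6, with the others at 96.3% to 96.6%. The cause of these values was not tested.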

How the results depend on the processing

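Under all alternatives run, 0 glucose genes were called and 0 of 12 isoform shares differed. Over all genes, limma-voom called 0, as did edgeR with either other scaling, a 5 CPM filter, the robust fit, or W2 and K7 left out. DESeq2 called 12 and edgeR with no count filter called 16, and leaving out 1 heart gave 0 to 2 calls, with 1 each without K7, K8, K9 or W6 and 2 each without K11 or K12. Glucose genes at an unadjusted p under 0.05 numbered 1 without W2 and K7. With 1 heart left out they numbered 0 to 2, the highest without W6 (Pgam1 and Gapdh). Genes whose groups did not overlap numbered 0 to 1, the 1 being Gys1 without W5. The shares over all tested genes were taken with all 12 hearts only. These counts from fewer hearts therefore have no background share beside them. No paired analysis was possible because the groups share no replicate numbers.

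Fold changes close to 0 changed sign, and the cause was not tested. On the log2 scale Pgam2 was -0.000749 with RLE scaling, -0.000559 in DESeq2, -0.00377 without a count filter and -0.00265 with a mean of at least 5 CPM. Pfkfb1 was 0.00809 with library totals, and limma-voom gave 0.024 for Pfkfb1, 0.000947 for Pfkm and 0.00924 for Eno3. Without W2 and K7 the log2 fold changes were -0.0484 for Slc2a1, -0.00635 for Slc2a4, 0.0316 for Slc2a12, 0.0185 for Pfkfb1, 0.0201 for Pgk1, -0.0235 for Eno1 and -0.0328 for Pygb. With all isoforms of a step counted, the share difference was 0.184 percentage points for Hk2 and -0.0635 for Aldoa.

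With 1 heart left out, the lowest and highest log2 fold changes, each with the heart omitted, were Slc2a1 -0.0958 (W4) to 0.258 (W6), Slc2a3 -0.211 (K7) to 0.0697 (W3), Slc2a4 -0.0509 (W4) to 0.14 (W6), Slc2a8 -0.0801 (W2) to 0.0569 (W4), Slc2a12 -0.0939 (W6) to 0.1 (K8), Pfkm -0.0495 (W4) to 0.0349 (W6), Pfkp -0.0541 (K9) to 0.0436 (W3), Pfkfb1 -0.0872 (W6) to 0.0893 (W2), Pfkfb2 -0.157 (W5) to 0.0847 (W6), Pgk1 -0.0306 (W4) to 0.0188 (W2) and Pgam2 -0.0265 (W4) to 0.0191 (W1). For the others that changed sign they were Eno1 -0.0046 (K7) to 0.0761 (K10), Eno3 -0.0559 (W4) to 0.0753 (W6), Pkm -0.103 (W4) to 0.00622 (W1), Pdhb -0.0418 (W1) to 0.0043 (W6), Pdk1 -0.023 (W6) to 0.0617 (W4), Pdp2 -0.0255 (K10) to 0.0988 (K11), Pgm1 -0.0154 (W4) to 0.0625 (W6), Gyg -0.0332 (K9) to 0.0575 (K8), Pygm -0.047 (K10) to 0.0165 (K9), Pygb -0.0261 (W2) to 0.0498 (K9) and Phkb -0.0307 (W6) to 0.0244 (K9). Share differences in percentage points ran for Slc2a4 -0.103 (W3) to 0.45 (W1), Slc2a1 -0.146 (W1) to 0.443 (W6), Hk2 -0.753 (W3) to 0.11 (W4), Pfkfb2 -1.76 (W5) to 2.04 (W6), Eno3 -0.144 (K10) to 0.094 (W6), Pdk2 -0.243 (W4) to 1.24 (W6), Pdp1 -1.15 (K11) to 1.49 (W4) and Pygm -0.95 (K10) to 0.244 (K8).

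The depth, 10631869 to 13327519 counts a heart, limits low-abundance genes such as Slc2a3, Slc2a12 and Pgm2. Slc2a1, with 7675 reads, had the second-largest SE (0.2), and its wild-type coefficient of variation was 45.6%. The p-values measure the spread between these mice in this one cohort. RPKM shares depend on the exon lengths taken, and reads that match several genes limit Gapdh, Pgk1, Eno1, Pgam1, Pkm and Pdhb.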
